A study of Drosophila melanogaster with 60 samples.

Results

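Heads of conRNAi flies of Drosophila melanogaster, collected at midday (ZT7) and in the middle of the night (ZT19), were compared by 3′ RNA-seq. This method reads only the 3′ ends of polyadenylated RNA, so a gene's count does not grow with its length. ZT is Zeitgeber time, in hours after lights on. The comparison used 6 of the 60 libraries of the series, taken by genotype and time from the sample labels: 3 replicate courses at ZT7 and 3 at ZT19. The conRNAi flies carry Tim-gal4, a driver active where timeless (a clock gene) is expressed, and UAS-Dcr2, which encodes the RNAi enzyme Dicer-2. They are the labelled controls of an RNAi experiment on cabut (cbt, a zinc finger transcription factor gene), so both driver and Dicer-2 transgene are present at both times. The labels give no age, no sex and no light schedule, and do not state if each course is a separate batch of animals. A p-value here measures only library-to-library spread, which includes any difference between courses, and part of that spread may be technical. The other 12 conRNAi libraries (ZT3, ZT11, ZT15 and ZT23, 3 courses each) entered the fit to estimate that spread.

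The fly clock is a feedback loop. Clock and Cycle, proteins of the genes Clk and cyc, activate transcription of period, timeless (tim), vrille (vri) and Pdp1. The Period and Timeless proteins then repress their own activators, and Cryptochrome (cry) is a blue light receptor through which light removes Timeless. In the head this loop runs in clock neurons, in photoreceptors, in glia and in the fat body, so a whole head gives the sum over these tissues. In such bulk RNA, fewer cells of a type and less RNA per cell cannot be told apart.

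Values are normalised reads, that is a library's read count for a gene divided by that library's size factor. The libraries held 5278138, 6930644 and 3508010 reads over genes at ZT7, and 4161045, 7066364 and 1519831 at ZT19. The shallowest, ZT19 replicate 3, also stood apart on the first principal component of the 6 libraries, which carried 35.6% of the variance: it lay at 32.57, and the other 5 between -12.61 and 4.25. Results are given with and without it where it mattered. The head label was checked against markers: 35 of 38 opsin and phototransduction genes, 21 of 22 neuronal genes and 14 of 16 head fat body genes were listed in the table, against 0 of 21 gut and 0 of 20 gonad markers. Every gene listed had at least 1 read in each library of the table. A marker that is not listed may thus still have had reads in some libraries, and low carry-over cannot be judged from this. The cbt gene itself had 302.5, 326.0 and 313.4 normalised reads at ZT7, against 287.7, 320.4 and 272.4 at ZT19, a log2 difference of 0.10 within the spread (SE 0.142, limma adjusted p = 0.887).

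Among the 7444 genes, 87 (1.17%) had a limma adjusted p under 0.05 between the times. At ZT7, 43 genes (0.578% of those tested) were higher and 44 (0.591%) were lower than at ZT19. Among them, 11 were more than 2-fold higher and 18 more than 2-fold lower on the log2(value + 1) scale. In 87 of the 87 the ranges of the 3 libraries at each time did not overlap, which was so for 14.2% of all genes. The median log2 difference over all genes was 0.01, a value that the scaling of the libraries sets near 0, and 9.56% of genes had an unadjusted p under 0.05. Without ZT19 replicate 3, 53 genes passed (28 higher, 25 lower), and 49 of these were among the 87. Leaving out ZT7 replicate 1 or ZT7 replicate 3 gave 56 and 57.

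Core clock genes. Of the 8 genes of the loop, 7 were listed in the table, 1 of which was higher at ZT7 and 1 lower; period was not analysed here. The gene tim (CG3234, chromosome arm 2L) had 107.5, 109.9 and 88.4 normalised reads at ZT7, against 551.5, 492.5 and 550.4 at ZT19. It fell by 2.38 on the log2 scale (SE 0.145, limma adjusted p = 3.92e-10), the lowest p of the comparison. The gene cry (CG3772, arm 3R) went the other way, with 243.1, 263.0 and 200.1 normalised reads at ZT7, against 101.5, 121.6 and 104.9 at ZT19. Its log2 change was 1.09 (SE 0.166, limma adjusted p = 4.88e-04). Both calls held when any 1 of the 6 libraries was left out.

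The other loop genes had similar levels at these 2 times. The repressor gene vri averaged 173.4 ± 14.5 normalised reads at ZT7 and 151.4 ± 24.9 at ZT19 (SD, n = 3 each), a log2 difference of 0.20 (limma adjusted p = 0.795). This is a crossing point of its daily course: vri averaged 24.7 at ZT3, 279.5 at ZT11, 327.3 at ZT15 and 46.8 at ZT23, so ZT7 and ZT19 stand on the flanks of its peak. Pdp1, which encodes an activator of Clk, differed by -0.24 (adjusted p = 0.788 in the same limma fit) and was highest at ZT15. Clk averaged 39.1 ± 5.52 at ZT7 and 34.6 ± 5.89 at ZT19 (SD, n = 3 each), with its lowest mean, 16.8, at ZT15 in between. The log2 differences of cyc (-0.32) and of the repressor gene cwo (0.10, a sign that turned without ZT7 replicate 2 or ZT19 replicate 1) were also within the spread. Pdf, the neuropeptide gene of the clock neurons, averaged 148.0 ± 29.5 at ZT7 and 204.9 ± 23.6 at ZT19, a log2 difference of -0.48 (limma adjusted p = 0.424). Its receptor gene Pdfr was at 0.08, and its sign turned without ZT19 replicate 2 or ZT19 replicate 3.

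**Figure D1:**
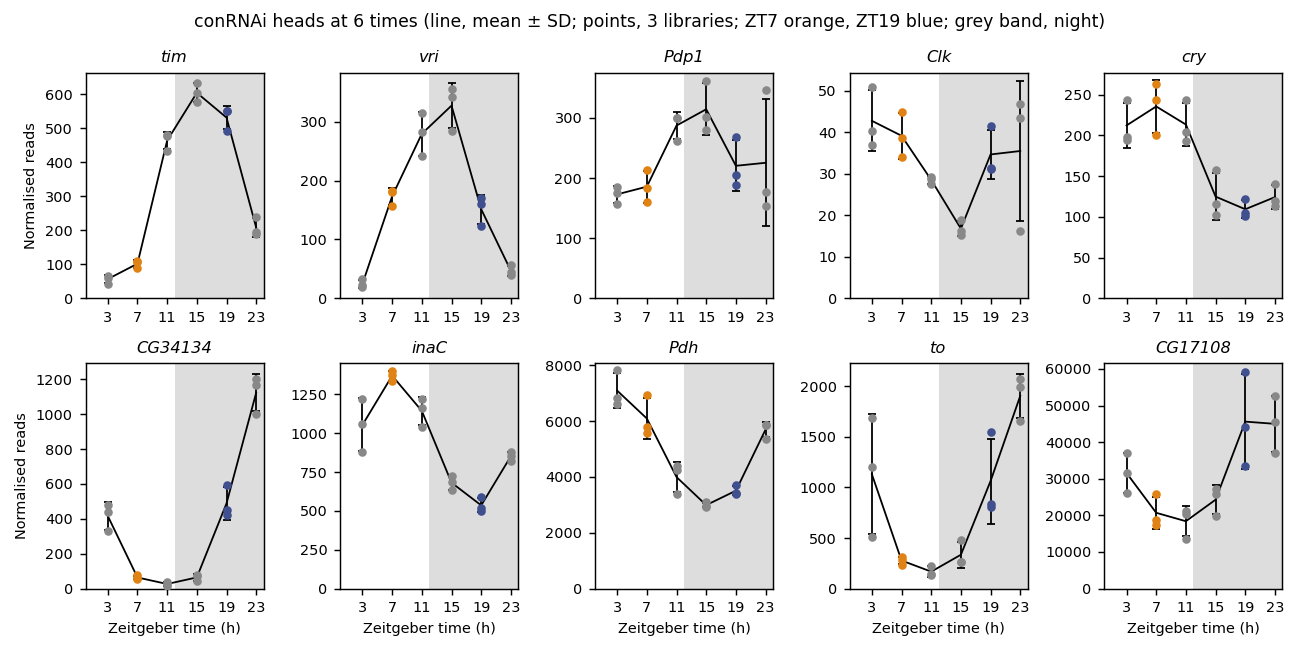
Normalised reads (y axis) of 10 genes at 6 Zeitgeber times (x axis, hours) in conRNAi heads, with lines for means ± SD and points for the 3 libraries of each time. The grey band marks ZT12 to ZT24 as night by convention. The gene tim was at 101.9 at ZT7 and 531.5 at ZT19 on average, while vri had its highest mean between the 2 times, at ZT15, and was similar at both.

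Clock output genes were split between both directions. Of 16 listed genes known as targets or outputs of the clock, 2 were higher and 3 lower at ZT7 (31.2% called, against 1.17% of all genes), with a list median of -0.14 against 0.01 for all genes. Ugt35B1 (CG6649), the gene of a glucuronosyltransferase, had 358.1, 382.9 and 388.2 normalised reads at ZT7, against 148.6, 114.8 and 150.9 at ZT19. The groups lay far apart, and the log2 change was 1.45 (SE 0.140, limma adjusted p = 8.97e-07). The gene takeout (to, CG11853), whose secreted product is tied to feeding and starvation, had 287.1, 237.4 and 307.8 at ZT7, against 1550, 806.1 and 837.5 at ZT19. It fell by 1.88 (SE 0.319, limma adjusted p = 0.00161), with ZT19 replicate 1 well above the other 2 libraries of its time. Cyp18a1, whose enzyme inactivates the steroid hormone ecdysone, fell by 0.94 and CG10553 by 0.86, and CG9649 was higher by 0.65. The call of Cyp18a1 was lost without ZT7 replicate 1 or ZT19 replicate 3 (limma adjusted p up to 0.0649). It was also lost when the libraries labelled RNAi, described below, joined the fit (36 libraries, limma adjusted p = 0.34). That of CG9649 was lost without any single library except ZT7 replicate 3 (up to 0.225), while the call of CG10553 held. Slob, which encodes a binding partner of the Slowpoke potassium channel, had 117.6, 121.1 and 100.5 at ZT7, against 159.4, 167.2 and 233.8 at ZT19, just outside the threshold (log2 -0.70, limma adjusted p = 0.0525).

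The largest fall among the called genes was that of CG34134, with 57.74, 75.78 and 57.06 normalised reads at ZT7, against 595.8, 448.4 and 421.5 at ZT19 (log2 -2.92, SE 0.277, limma adjusted p = 8.42e-07). At ZT23 it averaged 1124 ± 107 (SD, n = 3) and at ZT11 26.0 ± 12.7, so ZT19 lay on its rise through the night. The largest increase among them was that of grnd (CG10176), the gene of the tumour necrosis factor receptor Grindelwald, with 16.95, 18.84 and 18.48 normalised reads at ZT7 against 3.624, 6.081 and 1.841 at ZT19. These are only 32, 47 and 23 reads against 5, 16 and 1, so the log2 change of 2.07 (SE 0.406) is poorly bounded, and the call ended without ZT19 replicate 3 (limma adjusted p = 0.0553). Miox, the gene of the inositol-degrading enzyme myo-inositol oxygenase, had 214.5, 241.0 and 262.8 at ZT7, against 86.25, 119.0 and 128.8 at ZT19 (log2 1.11, SE 0.163, limma adjusted p = 4.11e-04). CG5853, an ABC transporter gene, was lower at ZT7, with 77.87, 76.18 and 101.3 against 298.6, 231.4 and 230.1 at ZT19 (log2 -1.56, SE 0.183, limma adjusted p = 1.93e-05).

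**Figure D2:**
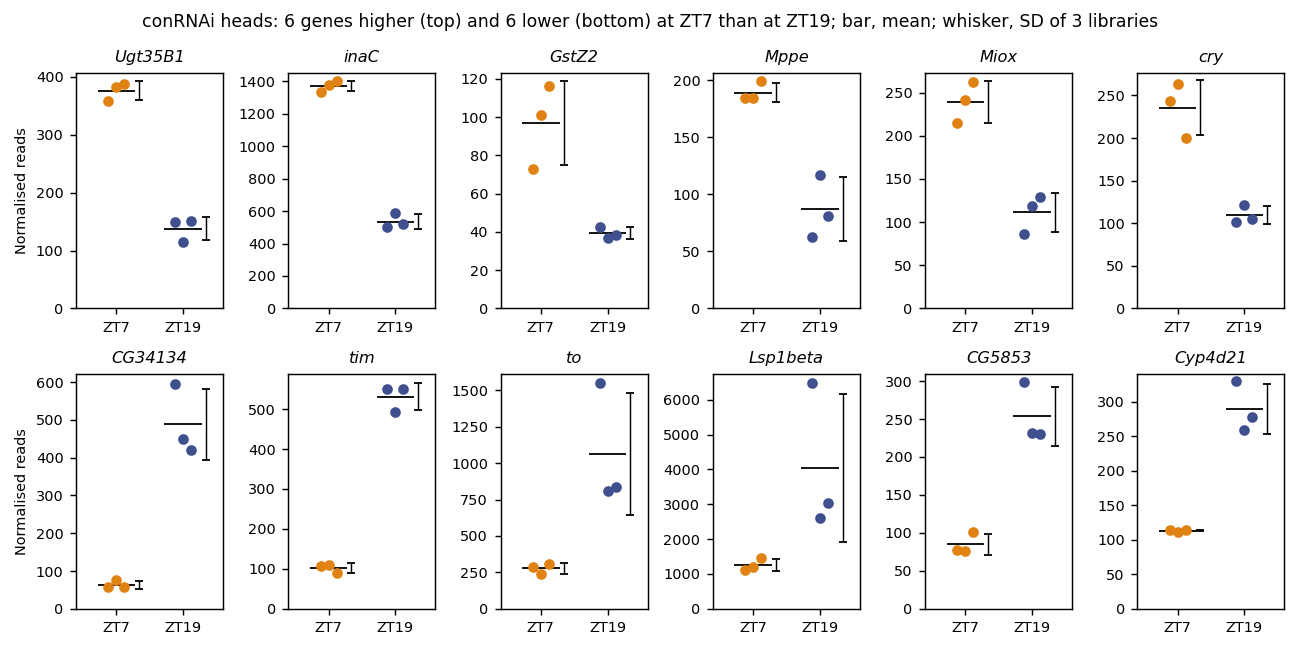
Normalised reads (y axis, from 0) of 12 genes in each of the 3 ZT7 libraries (left) and 3 ZT19 libraries (right) of conRNAi heads, with mean bars and SD whiskers. The top row shows genes higher at ZT7, such as Ugt35B1 at 358.1 to 388.2 against 114.8 to 150.9, and the bottom row genes lower at ZT7, such as tim.

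Photoreceptor genes. Fly phototransduction starts at opsins, runs through a Gq protein and phospholipase C, and opens the TRP and TRPL channels, while the scaffold protein INAD holds the enzymes together. Of 35 listed opsin and phototransduction genes, 5 were higher and 1 lower at ZT7 (1.17% of all genes passed), with a list median of 0.03. Of the higher genes, inaC, Gbeta76C, trpl and inaD act downstream of the opsins. Without ZT19 replicate 3, 3 were higher and 1 lower. The protein kinase C gene inaC (CG6518, arm 2R), whose product helps to end the light response, had 1334, 1376 and 1400 normalised reads at ZT7, against 500.1, 587.2 and 519.1 at ZT19. No library of one time came near those of the other, and the log2 change was 1.36 (SE 0.115, limma adjusted p = 1.40e-07). The gene Gbeta76C, the beta subunit of the eye's Gq protein, had 1526, 1433 and 1533 at ZT7, against 916.8, 1046 and 992.1 at ZT19 (log2 0.60, SE 0.0986, limma adjusted p = 0.00107).

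The gene of the channel TRPL (trpl) had 2256, 2039 and 2314 normalised reads at ZT7, against 1582, 1147 and 1458 at ZT19, a log2 change of 0.67. The scaffold gene inaD had 913.3, 805.1 and 1023 at ZT7, against 644.3, 623.3 and 566.9 at ZT19, a log2 change of 0.57. Both calls (limma adjusted p = 0.0359 and 0.0195) were lost without ZT7 replicate 1, ZT7 replicate 3 or ZT19 replicate 3, and that of trpl also without ZT7 replicate 2 or ZT19 replicate 2. The highest limma adjusted p was then 0.173 for trpl and 0.168 for inaD. The gene Pdh, a retinol dehydrogenase of the eye's pigment cells that recycles the visual chromophore, had 5786, 5564 and 6940 at ZT7, against 3701, 3403 and 3418 at ZT19 (log2 0.79, SE 0.117, limma adjusted p = 4.11e-04). Pdh overlaps Tcs3 on the other strand, which was higher by 0.86, and the reads of the 2 genes cannot be told apart if strand was not used in counting.

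Some genes tied to the making of rhodopsin were lower at ZT7. Cnx99A, the calnexin that folds the opsin Rh1, had 313.1, 275.8 and 335.1 normalised reads at ZT7, against 472.5, 536.2 and 541.1 at ZT19. It fell by 0.75 (SE 0.127, limma adjusted p = 0.00161). The retinol dehydrogenase gene rdhB, which acts in the making of the chromophore, had 467.8, 451.9 and 483.0 at ZT7, against 813.9, 680.6 and 791.5 at ZT19 (log2 -0.70, SE 0.121, limma adjusted p = 0.00176). Xport-A, the gene of a chaperone for TRP and Rh1, fell by 0.62 (limma adjusted p = 0.0126), a call lost without ZT7 replicate 2, ZT7 replicate 3, ZT19 replicate 1 or ZT19 replicate 3 (up to 0.107). It overlaps Xport-B on the same strand. An exception in this direction was Mppe, a phosphoesterase gene that acts in trimming the sugar chains of Rh1: it had 184.3, 184.4 and 199.3 at ZT7, against 62.33, 117.4 and 80.99 at ZT19 (log2 1.16, SE 0.192, limma adjusted p = 0.00120). The genes rdhB, Xport-A and Mppe were not on the list and were grouped here after their values were seen.

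The opsin genes themselves did not pass. ninaE, the gene of Rh1, averaged 36590 ± 2974 normalised reads at ZT7 and 32200 ± 1812 at ZT19 (SD, n = 3 each), a log2 difference of 0.18 (limma adjusted p = 0.728). Rh5, an opsin gene of the inner photoreceptors, averaged 376.3 ± 29.0 at ZT7 and 539.9 ± 44.0 at ZT19, a log2 difference of -0.52 (limma adjusted p = 0.0782), and Rh6 was at -0.38. The Gq alpha subunit gene Galphaq was at 0.49 (limma adjusted p = 0.107) and the lipid phosphatase gene laza at 0.61 (limma adjusted p = 0.118). Summed over the 35 genes, the ZT7 libraries held 108200 to 120900 normalised reads and the ZT19 libraries 94920 to 113100, ranges that overlap. The retinophilin gene rtp, whose product sits in photoreceptors, had 3147, 2894 and 3096 at ZT7, against 1844, 1848 and 1761 at ZT19 (log2 0.74, SE 0.0930, limma adjusted p = 3.97e-05). Its opposite-strand neighbour Mms19 changed by nearly the same amount (0.76), and the reads of the 2 genes cannot be told apart without strand.

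**Figure D3:**
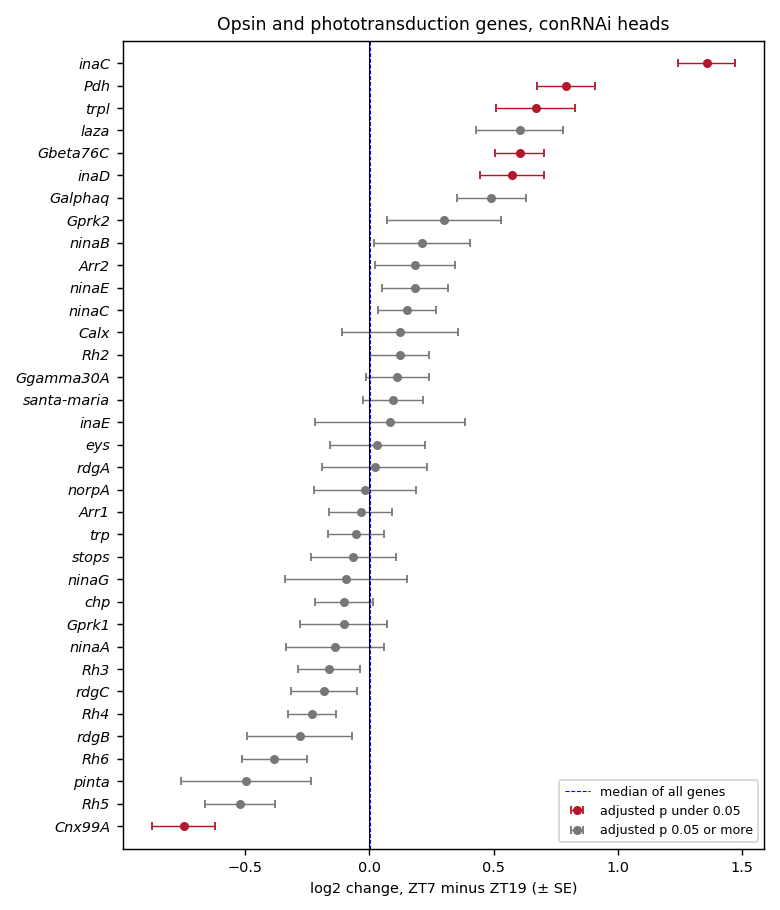
The log2 difference ZT7 minus ZT19 (x axis, points with SE bars) of 35 opsin and phototransduction genes (y axis) in conRNAi heads, red where the adjusted p was under 0.05. inaC at 1.36 stands apart at the top and Cnx99A at -0.75 at the bottom, with most genes around the median of all genes.

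Metabolic and detoxification genes. The cytochrome P450 family, oxidases of steroids, fatty acids and foreign compounds, had 54 listed genes, of which 0 were higher and 5 lower at ZT7 (9.26% called, against 1.17% of all genes), with a median of -0.17. Without ZT19 replicate 1 or ZT19 replicate 3 the median was -0.07. Cyp4d21, a male-biased P450 gene also known as sxe1, had 113.4, 111.9 and 114.1 normalised reads at ZT7, against 329.8, 259.6 and 277.9 at ZT19. It fell by 1.34 (SE 0.208, limma adjusted p = 6.37e-04), and it was the 1 P450 gene of these 5 still called without ZT19 replicate 3. The others were Cyp6d5 (-0.55), Cyp18a1, Cyp6a20 (-0.62), which is linked to aggression in male flies, and Cyp12d1-p (-1.46). Cyp6d5 lost its call without ZT7 replicate 2 or ZT19 replicate 3 (limma adjusted p up to 0.0746), and Cyp6a20 without ZT7 replicate 1, ZT7 replicate 3, ZT19 replicate 1 or ZT19 replicate 3 (up to 0.151). Cyp18a1 lost it without ZT7 replicate 1 or ZT19 replicate 3, and Cyp12d1-p without any single library except ZT19 replicate 2 (up to 0.232). In the fit over 36 libraries, Cyp18a1, Cyp6a20 and Cyp12d1-p also lost it (limma adjusted p 0.34, 0.175 and 0.27). Cyp12d1-p has a near-identical neighbouring copy in the genome, so its own level is uncertain. The list of 9 sex-biased head genes, yolk protein genes included, gave 1 call, Cyp4d21, and its summed level overlapped between the times (220700 to 253000 at ZT7, 174200 to 250300 at ZT19).

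Glutathione transferases had 2 higher and 0 lower of 25 listed genes, where 0.578% of all genes were higher and 0.591% lower. GstZ2, of the zeta class that acts in tyrosine breakdown, had 73.10, 101.0 and 116.5 normalised reads at ZT7, against 42.76, 36.86 and 38.65 at ZT19 (log2 1.25, SE 0.188, limma adjusted p = 4.55e-04). GstE2 was higher by 0.76, a call that ended without ZT7 replicate 2 or ZT19 replicate 3 (limma adjusted p up to 0.0856). Hpd, which encodes another enzyme of tyrosine breakdown, was higher by 0.66, a call that ended without the same 2 libraries (up to 0.106); it overlaps CtIP (0.90) on the other strand. Got1, the gene of an aspartate aminotransferase, was higher by 0.59, a call lost without any single library except ZT19 replicate 1 (up to 0.177). Hpd and Got1 were the 2 calls among 21 listed genes of one-carbon and amino acid catabolism (9.52%, against 1.17% of all genes). Of these 21, 10 log2 differences were positive and 11 negative, with a median of -0.02. The list held 0 calls without ZT7 replicate 2 or ZT19 replicate 3. bgm, an acyl-CoA synthetase gene for very long fatty acids, was higher by 0.83 (SE 0.133, limma adjusted p = 8.44e-04), a call that held without each library.

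Fat body genes. The head fat body, a tissue that surrounds the brain and secretes blood proteins, had 14 listed markers, 0 higher and 2 lower at ZT7 (0.578% of all genes were higher and 0.591% lower), with a median of -0.17. The log2 difference was positive for 5 of the 14 and negative for 9. The larval serum protein gene Lsp1beta had 1105, 1211 and 1461 normalised reads at ZT7, against 6483, 2605 and 3032 at ZT19. It fell by 1.57 (SE 0.257, limma adjusted p = 0.00110), and the call held without each library. The odorant binding protein gene Obp99b had 561.5, 463.1 and 1062 at ZT7, against 4285, 1251 and 2829 at ZT19, a fall of 1.93 (SE 0.397, limma adjusted p = 0.0106). This call ended without ZT7 replicate 1, ZT7 replicate 2, ZT19 replicate 1 or ZT19 replicate 3 (limma adjusted p up to 0.105). The related gene Obp99a averaged 500.0 ± 215.7 at ZT7 and 1142 ± 433 at ZT19 (limma adjusted p = 0.313), and Lsp2 1922 ± 1032 and 3495 ± 1909 (limma adjusted p = 0.652). The listed marker FASN1 went the other way without a call. It averaged 1909 ± 94.0 at ZT7 and 1500 ± 34.2 at ZT19, a log2 difference of 0.35.

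The fat body markers summed to 29090 to 32450 normalised reads at ZT7 and 32650 to 52200 at ZT19, ranges that nearly touch. Leaving out 1 library kept the list median between -0.27 and -0.10. The value of -0.10 was without ZT19 replicate 1, where 0 markers were higher and 1 lower. The part of these markers in the other genes that were lower at ZT7 was not tested. ZT19 replicate 1 was the highest library for Lsp1beta, Obp99b and to, and also for CG6409 (-0.99), CG17108 (-1.12) and the antibacterial peptide gene Listericin (-1.08). Without it the last 3 lost their calls (limma adjusted p 0.0683 for CG6409, 0.0518 for CG17108 and 0.108 for Listericin), and Lsp1beta kept its own at -1.17. CG6409 and Listericin also lost theirs without ZT7 replicate 1 or ZT7 replicate 2.

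Other genes that were lower at ZT7 and held without each library included CG1943 (-0.94, limma adjusted p = 1.20e-05) and CG10237 (-0.98, limma adjusted p = 3.97e-05). Another was Sirup, an assembly factor gene of respiratory complex II (-0.93, limma adjusted p = 3.97e-05). The ubiquitin ligase gene gol (-1.04, limma adjusted p = 0.00321) and Obp56e (-0.85, limma adjusted p = 4.11e-04) were among them too, but Obp56e lost its call when the labelled RNAi libraries joined the fit (36 libraries, limma adjusted p = 0.27). Each of these was at its lowest mean at ZT7 except gol, which was lowest at ZT3. Genes higher at ZT7 that held in the same way included CG18598 (0.99, limma adjusted p = 6.64e-04), CG15211 (1.09, limma adjusted p = 0.00192) and the calponin-like gene Chd64 (0.74, limma adjusted p = 6.64e-04). CG9377 was higher by 1.44 (limma adjusted p = 0.00568). CG15211 overlaps Ant2 on the other strand, a gene of an ATP/ADP carrier that was higher by 1.38 and whose call ended without ZT7 replicate 1 or ZT19 replicate 1 (limma adjusted p up to 0.0567).

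Several lists held 0 calls. Of 71 listed mitochondrial ribosomal protein genes, whose products translate the mitochondrial genome, 0 passed in either direction, and 17 were at an unadjusted p under 0.05 (9.56% of all genes were). Their median log2 difference was -0.26, and 63 of the 71 were negative, also under TMM and median-ratio scaling. Leaving out 1 library kept the median between -0.29 and -0.22, and gave 1 lower call without ZT7 replicate 1 and 3 without ZT19 replicate 2. mRpL50 averaged 39.2 ± 0.988 at ZT7 and 79.1 ± 8.70 at ZT19 (limma adjusted p = 0.0534), and mRpS30 47.0 ± 12.9 and 85.5 ± 15.9 (limma adjusted p = 0.0516). The 13 mitochondrially encoded transcripts had a median of 0.17, with 13 of 13 positive and 0 called. Of 85 cytoplasmic ribosomal protein genes 0 were called and the median was -0.09.

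Among energy lists, the 14 glycolysis genes had a median of 0.20 and the 6 pentose phosphate genes 0.23, with 0 calls in both. The 16 genes of lipolysis and beta-oxidation had a median of -0.17 and 0 calls. The 21 neuronal genes (median 0.17) had 0 calls and the 13 glial genes (median 0.08) had 1, nrv2, a subunit gene of the sodium pump, which was higher by 0.47. That call was lost without any single library except ZT19 replicate 2 (limma adjusted p up to 0.237). There were 0 calls among 27 antimicrobial and immune, 15 heat shock and Turandot, 17 muscle, 10 hemocyte, 17 cuticle and 12 feeding peptide and receptor genes. For lists this short, a count of 0 or 1 is near what the background of 1.17% gives.

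**Figure D4:**
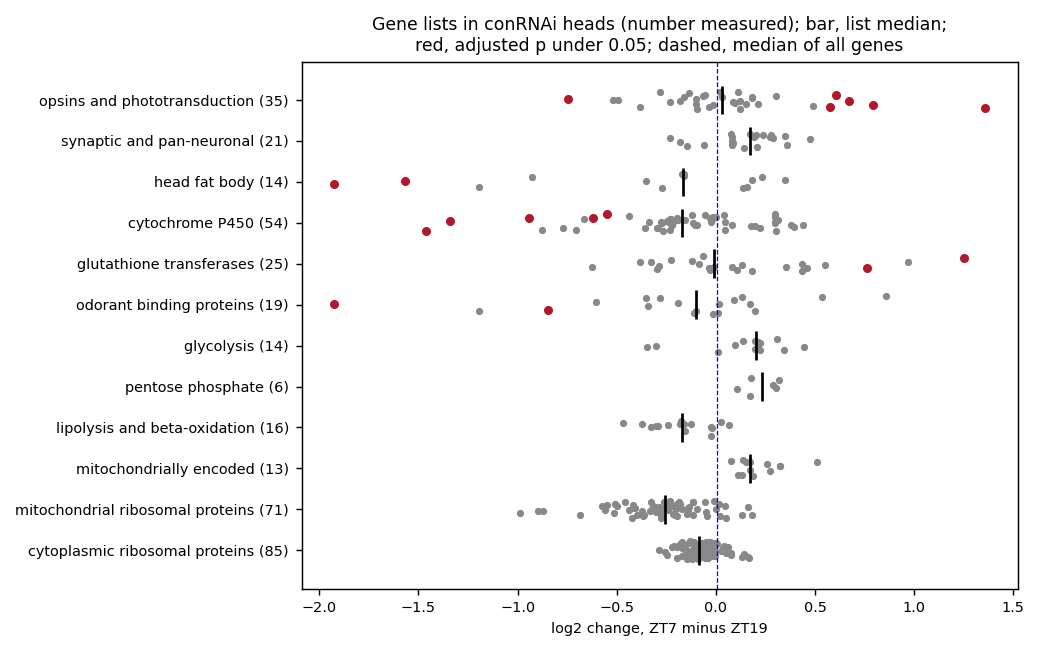
The log2 difference ZT7 minus ZT19 (x axis) of each member of 12 gene lists (y axis, number listed) in conRNAi heads, with bars for list medians and a dashed line for the median of all genes. P450 calls lie below 0, and the mitochondrial ribosomal protein genes lie mostly below 0 without a call.

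Where the 87 genes stood over the whole day was read from the other 4 times of the same genotype. Of the 43 genes higher at ZT7, 24 had their highest mean at ZT7, 11 at ZT3, 6 at ZT11 and 2 at ZT23, and 34 had their lowest at ZT19. Of the 44 lower genes, 28 were highest at ZT19, 10 at ZT23, 5 at ZT15 and 1 at ZT11, and 24 were lowest at ZT7. These times include those by which the genes were called, so the counts are a description. Other pairs of times 12 h apart gave 97 calls (1.3%) for ZT3 against ZT15 and 141 (1.89%) for ZT11 against ZT23, and 30 of the 87 genes were called in each. In the authors' deposited table, all of the 87 had a rhythm q-value under 0.05, as did 939 of the 7444 genes (12.6%); that test used the same libraries.

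Other driver flies, of 2 genotypes, which share no library with conRNAi, were examined at the same 2 times. The first, labelled RNAi, carries the driver and UAS-cbt RNAi, a construct against cabut, with 3 libraries at each time. Its cbt level was 318.7 ± 70.4 normalised reads at ZT7 and 302.6 ± 57.2 at ZT19 (SD, n = 3 each). A lower level is thus not seen in these reads, but they come from the 3′ end, and how the construct acts on the counted end is not known, so this is no measure of the knockdown. In these heads 53 of 7444 genes (0.712%) passed limma's test, 35 higher and 18 lower at ZT7, and 7.55% of genes had an unadjusted p under 0.05. Of the 87 conRNAi genes, 87 had the same sign there, against 62.3% of all genes, and 31 were called in the same direction. That is 35.6% of the conRNAi calls and 58.5% of the calls in labelled RNAi. The median absolute log2 change of the 87 was 0.634 in labelled RNAi and 0.861 in conRNAi, where they were chosen.

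The test of the difference between the 2 genotypes gave 0 calls of 7444 (limma, 157 at an unadjusted p under 0.05; edgeR 0, with 194). Of the 87 genes, 6 had an unadjusted p under 0.05 for this difference: grnd, CG7296, MsrA, CG11200, CG9377 and CG6356. Each had the smaller change in labelled RNAi, such as 0.40 against 2.07 for grnd. Since the genes were chosen by their change in conRNAi, that choice alone favours this direction. The log2 change of tim was -2.37 in labelled RNAi and -2.38 in conRNAi, and that of to was -1.84 in labelled RNAi and -1.88 in conRNAi. The fat body genes Lsp1beta and Obp99b were at -0.76 and -0.87 in labelled RNAi (limma adjusted p = 0.562 and 0.712). In conRNAi they were at -1.57 and -1.93. The 3 genes of lowest p for the difference were CG6984, ocm and Mtk. The antifungal peptide gene Mtk had 1635, 1503 and 1435 normalised reads in labelled RNAi at ZT7 and 423.4, 282.9 and 108.7 at ZT19, against 3862, 1522 and 672.7 in conRNAi at ZT7 and 3775, 2127 and 2980 at ZT19. Its log2 difference between the genotypes was 3.55 (SE 1.07, limma adjusted p = 0.9997), that of CG6984 was 1.40 (SE 0.359) and that of ocm -1.40 (SE 0.378).

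The second set, conOE, carries Tim-gal4 alone, with 2 libraries at each time in a table that was normalised separately, so its values stand beside those of conRNAi without a test across tables. There 3 of 7648 genes passed (0.0392%), tim (-2.43), CG34134 (-3.15) and inaC (1.06), each of which was also called in conRNAi. inaC had 943.9 and 1056 normalised reads at ZT7, against 489.5 and 469.2 at ZT19. Of the 87 conRNAi genes, 85 were listed in both tables and 82 had the same sign, against 59.5% of the 6986 genes in both. Of these, 50 had an unadjusted limma p under 0.05 in conOE, where 4.79% of genes did. The 3 genes of opposite sign were grnd (-0.03), mi (0.01) and Lsp1beta, at 2.18 in conOE (SE 1.10, limma adjusted p = 0.999) against -1.57 in conRNAi. Lsp1beta had 6491 and 258.9 normalised reads in conOE at ZT7, against 288.7 and 282.1 at ZT19. Its sign there rests on ZT7 replicate 1, since the other ZT7 library lay below both ZT19 libraries. The takeout gene was at -0.51 in conOE and Obp99b at -0.34, against -1.88 and -1.93 in conRNAi. cry was at 1.31 in conOE against 1.09 in conRNAi, and Ugt35B1 at 1.62 against 1.45. The list median of the cytochrome P450 genes was -0.17 in conRNAi, -0.05 in labelled RNAi and 0.06 in conOE, where 48 of the 54 were listed. That of the head fat body markers was -0.17, -0.04 and 0.31 in the same order. The mitochondrial ribosomal protein genes kept their sign, at -0.26, -0.27 and -0.22.

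**Figure D5:**
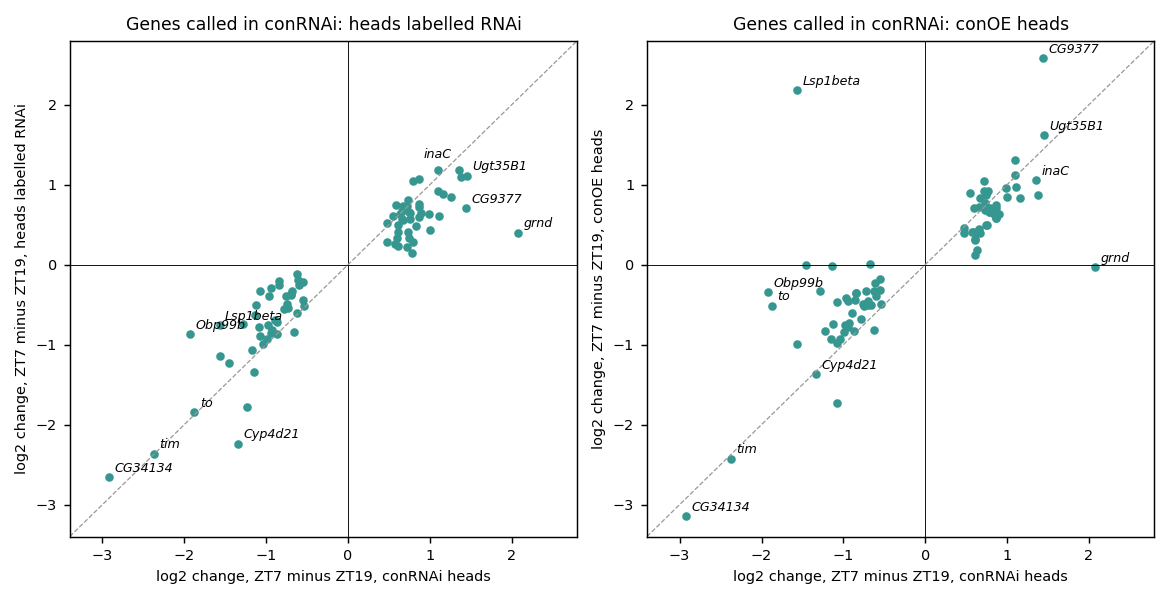
The log2 difference ZT7 minus ZT19 in heads labelled RNAi (left panel, y axis) and in conOE heads (right panel, y axis) against that in conRNAi heads (x axis) for the genes called in conRNAi, with the dashed line of equal change. tim and CG34134 lie near the line in both panels, and Lsp1beta has opposite signs in conOE and conRNAi, in conOE through 1 ZT7 library at 6491 against 258.9 in the other.

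Some calls cannot be assigned to a single gene. Of the 87 genes, 34 overlap a neighbour on the other strand and 10 a neighbour on the same strand in the gene annotation, and whether the reads were counted by strand is not given in the sources used here. In 4 pairs both partners were called: rtp with Mms19, Pdh with Tcs3, CtIP with Hpd and Ant2 with CG15211. No called gene shared all its values with another listed gene.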

How the data were processed

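RNA from whole heads was measured by 3′ RNA-seq, with poly(A) selection after fragmentation, per the labels' protocols. The submitters' processing notes name Bowtie, TopHat and genome build dm3. For tool versions, counting and normalisation, the method is not given in the sources used here. The authors deposited 1 signal value per transcript and library. From the values, each equals whole reads over 1 scaling factor per library: within 0.05 reads, every value in the RNAi table was a whole number of reads. The table lists 8443 transcripts. The one of highest mean was kept per gene, a choice made after the values were known, which left 7444 genes. The authors' deposited q-values of a rhythm test in conRNAi heads were only counted. In all, 12 further per-sample columns were not used.

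Symbols came from a RefSeq table (Release 6 plus ISO1 MT; 7186 genes by locus tag, 252 by synonym, 6 kept as listed), and neighbours from a gene annotation of another build than dm3, so no coordinates are given. limma-trend (limma 3.58.1, R 4.3.3) was fitted on log2(value + 1) over the 18 conRNAi libraries with time as a factor, Benjamini-Hochberg adjustment over all genes and a threshold of 0.05. The scale understates changes of low genes. The replicate number was not in this model. With it as a block, all 87 genes kept their call and further genes passed. A mean of at least 1 was required and removed no gene. The difference between genotypes was fitted over 36 libraries, and conOE over its 12. On the recovered whole reads, edgeR 4.0.16 called 99 genes and DESeq2 1.42.0 called 143. The fits were tested on simulated data. The 6 pairs of replicate libraries gave a chi-square of 7.54 to 17.6 per degree of freedom, above sampling noise, so none looked like a library listed again. Read totals over the 18 libraries ran from 702201 to 13889631, which limits low genes most.

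The groups compared, the gene lists and the genes named were chosen with earlier results of these data known. The naming rule took core clock genes, cbt, Pdf and Pdfr, the 15 largest increases and 15 largest decreases among called genes with non-overlapping ranges, up to 4 members of lowest p per list and 3 genes of lowest p for the difference; other called genes were named after their values were seen. A limma fit was planned for normalised values, as found here. No sequence is printed. Alternatives covered the pseudocount, a filter on low values, scaling, library weights, the libraries fitted, the tool, the transcript choice, the replicate number and each of the 6 libraries.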

Additional observations from a re-analysis of the deposited data

Results flagged for a closer look

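The ZT7 and ZT19 libraries did not overlap for tobi in conRNAi and conOE, nor for ocm in conRNAi, labelled RNAi and conOE. For both genes the sign in conRNAi was opposite to that in the other flies named. In conRNAi, 14.2% of all genes did not overlap, and no such share is given for the other flies. The alpha-glucosidase gene tobi had 131.9, 158.0 and 159.1 normalised reads at ZT7 in conRNAi heads, against 403.7, 263.4 and 274.3 at ZT19, a log2 difference of -1.04 (limma adjusted p = 0.342). In conOE heads it had 385.1 and 45.28 at ZT7, against 20.92 and 34.13 at ZT19, a log2 difference of 2.268 carried mainly by replicate 1. The tables were normalised separately, and the difference between conRNAi and conOE was not tested.

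The gene ocm had 45.56, 34.88 and 35.36 normalised reads at ZT7 in conRNAi heads, against 19.57, 28.88 and 11.04 at ZT19 (log2 1.01, limma adjusted p = 0.0788). In heads labelled RNAi it had 29.34, 29.46 and 34.19 at ZT7, against 35.28, 38.71 and 49.91 at ZT19. The difference between the 2 genotypes was -1.403 (unadjusted p = 6.85e-04, limma adjusted p = 0.9997 over all genes). In conOE heads ocm was at -0.6369, with 22.25 and 38.55 at ZT7, against 54.39 and 39.15 at ZT19. The difference between conRNAi and conOE was not tested. Outside conRNAi the ranges were only narrowly apart, by 34.19 against 35.28 in labelled RNAi and 38.55 against 39.15 in conOE. These are low counts, with 86, 87 and 44 reads at ZT7 and 27, 76 and 6 at ZT19 in conRNAi.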

How the results depend on the processing

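The number of genes called depended on which libraries were used. Leaving out 1 of the 6 libraries gave 53 to 105 calls in place of 87, 27 to 56 higher and 25 to 49 lower at ZT7, with the lowest total without ZT19 replicate 3 and the highest without ZT19 replicate 2. DESeq2 on the recovered reads called 143 genes (71 higher, 72 lower), including 86 of the 87. Of the 87 genes, 36 kept their call in all 16 alternatives run on them, which do not include the transcript choice, and 38 when each library was left out in turn; 0 changed direction. The fit over 36 libraries kept 64 of the 87 and that over the 6 libraries alone kept 72. Library weights kept 83, edgeR 84, TMM and median-ratio scaling 85 each, a mean of at least 20 kept 86 and a pseudocount of 5 kept 87. Of genes that were not called, cwo ranged from -0.1109 to 0.2083 when 1 library was left out and Pdfr from -0.09091 to 0.3834. Pdfr was at -0.002308 with edgeR and -0.003848 with DESeq2. The test of the difference between genotypes gave 0 calls under every alternative run, and conOE gave 2 to 4.

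Over all genes, same-numbered ZT7 and ZT19 libraries deviated together with correlations of 0.038, 0.126 and 0.032, and different numbers reached 0.093. These correlations cover ZT7 and ZT19 only, so they cannot show whether single genes follow the replicate number. In CG17108, Obp99b and cyc, picked after their values were seen, replicate 2 was the lowest library at each of the 6 times. With the replicate number as a block, 160 genes passed (84 higher, 76 lower), among them all 87. Low read counts, as for grnd and ocm, and the 1519831 reads of ZT19 replicate 3 limit what could be called.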
